A study of Mus musculus with 21 samples.

Results

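The PYHIN genes of the mouse form a single cluster on chromosome 1 and encode proteins that pair a pyrin domain, a docking module for other pyrin proteins, with HIN domains that bind DNA, although not every member has both. AIM2 binds DNA in the cytosol and assembles an inflammasome with the adaptor ASC and caspase-1, whereas IFI204 has been linked to STING signalling. Most other mouse members are known as interferon-inducible proteins, many of them found in the nucleus, and the interferon-stimulated response element is a DNA element bound by the factors that interferon activates. The genes described here are the 9 rows named Mndal, Ifi203, Ifi204, Ifi205, Ifi207, Ifi209, Ifi211, Ifi213 and Aim2, out of 57180 genes in the deposited table, and all 9 passed the filter on low counts. The family was selected on measured values, the large log2 fold changes of Mndal, Ifi203, Ifi207 and Ifi211 between transplanted monocyte-derived cells and transplanted microglia. The values of that comparison are therefore given as a description, without a test.

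The data are RNA-seq counts of 21 libraries in 6 groups, made from sorted cells of the mouse brain. Transplanted microglia (MG) and cells descended from transplanted monocytes (MLC, labelled monocyte-derived microglia) had the genotype Osb-GFP, and microglia of mice that received no transplant (NoTx) had the genotype CX3CR1-CreER+/-; CSF1R fl/fl, a Cre driver under the promoter of a microglial and monocyte gene combined with a conditional allele of the receptor microglia need to survive. The sources used here do not say whether Cre was induced in the NoTx mice, and give neither the host genotype of the transplants nor the age at collection. After saline there were 3 MG, 3 MLC and 2 NoTx libraries, and 5 days after a kainic acid seizure, induced with an agonist of glutamate receptors, the numbers were 4 of MG, 6 of MLC and 3 of NoTx. The labels put every seizure library in batch 1 and every saline one in batch 2. Treatment therefore cannot be told apart from batch, and transplantation cannot be told apart from genotype in comparisons with NoTx.

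Library totals ran from 36.5 to 50.3 M counts after saline and from 6.57 to 73.8 M counts after seizure, where M is 1000000. At a depth of 6.57 M counts, the saline libraries had 15426 to 18095 genes with a count and the seizure libraries 11715 to 15460. MG seizure replicates 3 and 4 and MLC seizure replicate 5 had the lowest of these numbers, at 11715, 12570 and 12786. The names of MLC seizure replicates 3 and 6 share a code with 2 other libraries of their group, so that some of these libraries may come from the same animal. All 10 microglia markers in the table were detected in every group, but their summed level was 15640 to 35490 CPM (counts per 1000000 counts, TMM-scaled) in the MLC libraries against 49920 to 80930 CPM in the others, and Sall1, a transcription factor that marks microglia, averaged 1.49 and 4.71 CPM in MLC against at least 193 CPM in every other group. Border macrophage markers summed to 855 to 1564 CPM in MLC and to at most 227 CPM elsewhere. Most of the MLC sum was Mrc1, with means of 980 and 842 CPM after saline and seizure, and Pf4, with 209 and 194 CPM. F13a1 and Lyve1 were instead highest in NoTx after saline. The 8 blood monocyte markers summed to at most 8.90 CPM in the MLC libraries and to 0.796 to 54.3 CPM in the MG libraries. Of these markers, Ly6c1 was at 0 in the MLC and MG groups and in NoTx after seizure. Xist exceeded 50 CPM in all 7 MG, none of the MLC, none of the 2 NoTx saline and 2 of the 3 NoTx seizure libraries, and the summed Y-linked genes did so in 6 of 7 MG, every MLC, both NoTx saline and 1 of 3 NoTx seizure libraries. Thus 6 of 7 MG libraries passed both limits, and the sex make-up of the libraries differed between the groups compared. In bulk samples such as these, more RNA per cell and more cells of a type cannot be told apart.

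The start regions of the genes that differed most, and that of Aim2, the member that differed least, are printed first because they show a short motif that the deposited counts did not enter. The sequences are RefSeq windows of the mouse build GRCm38.p6, with 250 bases before and 50 after an annotated start, on the strand of the gene, while the counts were made on GRCm39. Capitals mark the core of the interferon-stimulated response element, searched as GAAA, 2 bases of any kind and GAAA on both strands. The Mndal window, the second of 2 in RefSeq, lies at chr1:173880138-173880437 (minus strand), that of Ifi203, the first of 2, at chr1:173942443-173942742 (minus strand), that of Ifi207 at chr1:173741760-173742059 (minus strand), that of Ifi211 at chr1:173912997-173913296 (minus strand) and that of Aim2 at chr1:173420354-173420653 (plus strand).
Mndal: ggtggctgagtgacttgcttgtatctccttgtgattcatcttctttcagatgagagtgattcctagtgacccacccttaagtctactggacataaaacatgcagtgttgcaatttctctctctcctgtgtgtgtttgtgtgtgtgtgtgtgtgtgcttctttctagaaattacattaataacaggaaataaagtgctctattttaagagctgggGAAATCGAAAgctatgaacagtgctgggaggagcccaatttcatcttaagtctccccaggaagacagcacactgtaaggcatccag
Ifi203: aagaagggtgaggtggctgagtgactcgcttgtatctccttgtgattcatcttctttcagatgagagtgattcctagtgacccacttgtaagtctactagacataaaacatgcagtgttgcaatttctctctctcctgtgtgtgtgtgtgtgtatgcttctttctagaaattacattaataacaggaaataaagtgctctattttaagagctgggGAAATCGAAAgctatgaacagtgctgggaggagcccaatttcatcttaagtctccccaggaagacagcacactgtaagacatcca
Ifi207: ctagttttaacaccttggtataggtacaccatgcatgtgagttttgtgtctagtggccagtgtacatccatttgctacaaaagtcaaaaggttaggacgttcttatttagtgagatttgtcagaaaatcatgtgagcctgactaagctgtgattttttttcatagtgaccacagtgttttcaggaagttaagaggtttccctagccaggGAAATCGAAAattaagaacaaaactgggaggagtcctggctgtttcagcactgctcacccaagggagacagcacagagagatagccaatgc
Ifi211: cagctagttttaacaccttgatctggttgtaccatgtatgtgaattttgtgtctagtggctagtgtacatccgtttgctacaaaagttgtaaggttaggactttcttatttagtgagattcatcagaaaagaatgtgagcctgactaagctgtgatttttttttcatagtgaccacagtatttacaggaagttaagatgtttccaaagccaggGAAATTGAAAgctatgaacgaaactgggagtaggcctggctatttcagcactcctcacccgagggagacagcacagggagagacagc
Aim2: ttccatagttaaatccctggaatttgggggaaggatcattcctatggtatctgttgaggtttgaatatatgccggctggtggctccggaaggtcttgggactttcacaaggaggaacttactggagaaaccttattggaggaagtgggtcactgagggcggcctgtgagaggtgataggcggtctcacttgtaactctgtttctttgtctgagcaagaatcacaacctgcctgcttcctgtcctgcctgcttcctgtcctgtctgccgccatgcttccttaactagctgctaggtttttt

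In the printed windows the motif sat 36 bases before the start of Mndal, 35 before that of Ifi203, 41 before that of Ifi207 and 37 before that of Ifi211. The other Ifi203 window held no match, and the other Mndal window held 1 on the opposite strand, 54 bases before its start. Ifi205, whose MLC and MG libraries overlapped, held 2 matches. The motif was present in a window of 6 of the 8 members that had one, the other 2 being Ifi213 and Ifi205, and in 3.44% of all 32851 windows of the same length. The first number counts genes, of which Mndal and Ifi203 had 2 windows each, and the second counts single windows, so the 2 are not alike. Aim2 and Ifi209 held no match in their windows, and no window was found for Ifi204. Over 289 aligned bases the printed Mndal and Ifi203 windows were 97.6% identical, and over 294 bases those of Ifi207 and Ifi211 were 88.4% identical, so these matches are not independent of each other. The gamma-activated site, searched as TTCNNNGAA, was in 0 of the 8 members' windows and in 8.30% of all windows. The core bound by PU.1, a transcription factor of myeloid cells, searched as GAGGAA, was in the windows of Aim2 and Ifi213 and in 28.3% of all windows, and in Ifi213 it overlapped the response element by 3 bases.

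Mndal, whose product is a nuclear interferon-inducible protein, was close to the detection limit in MG and abundant in MLC. After saline its level was 0.629, 0.228 and 0.0833 CPM in the 3 MG libraries, 166, 265 and 103 CPM in the 3 MLC libraries, and 6.28 and 22.6 CPM in the 2 NoTx libraries. After seizure it was 0.125 to 0.504 CPM (median 0.273) in the 4 MG libraries, 148 to 348 CPM (median 218) in the 6 MLC libraries, and 0.346, 0.577 and 0.252 CPM in the 3 NoTx libraries. Every MLC library was thus above every other library, and the NoTx saline libraries lay between MLC and the remaining groups. The MG libraries held 40 Mndal counts in all after saline and 33 after seizure, so the low level rests on few reads.

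Ifi203, a second nuclear member and the neighbour of Mndal in pattern, had 0.815, 0.411 and 0.167 CPM in MG after saline, 212, 438 and 137 CPM in MLC, and 5.86 and 34.4 CPM in NoTx. After seizure Ifi203 ran from 0 to 0.637 CPM in MG (median 0.305), from 184 to 387 CPM in MLC (median 297), and was 0.968, 1.03 and 7.37 CPM in NoTx. The 6 group means had the same order as those of Mndal, but after seizure the 3 NoTx libraries of Ifi203 lay above all 4 MG libraries, whereas those of Mndal overlapped them. Ifi207 had 17.4, 11.2 and 7.44 CPM in MG after saline, 266, 402 and 163 CPM in MLC, and 20.1 and 31.1 CPM in NoTx. After seizure Ifi207 was 31.4, 1.37, 4.38 and 5.46 CPM in MG, 282 to 378 CPM in MLC (median 314), and 4.15, 3.33 and 9.24 CPM in NoTx. Its mean in MLC after seizure was 322 ± 33.2 CPM (SD, n = 6).

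Ifi211 had 6.92, 6.61 and 2.80 CPM in MG after saline, 77.2, 147 and 45.6 CPM in MLC, and 4.23 and 18 CPM in NoTx. After seizure it was 5.99, 0, 0.265 and 0.191 CPM in MG, 61.4 to 231 CPM in MLC (median 104.5), and 0.484, 0.365 and 0.0505 CPM in NoTx. MLC again stood apart from all other libraries, and MG replicate 1 was the only seizure library outside MLC above 1 CPM. Ifi213 averaged 6.55 ± 2.92 CPM (SD, n = 3) in MG, 71.5 ± 43.1 CPM (n = 3) in MLC and 4.48 ± 2.36 CPM (n = 2) in NoTx with saline treatment, and 22.3 ± 28.2 (n = 4), 116 ± 44.8 (n = 6) and 0.394 ± 0.213 (n = 3) after seizure. Its MG seizure libraries ranged from 0 to 63.5 CPM, and the lowest MLC seizure library had 73.6 CPM, so the seizure groups only just did not overlap, while 2 MLC saline libraries, at 46.3 and 47.0 CPM, lay below the highest MG seizure library.

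The members of moderate difference were Ifi204, the STING-linked sensor, and Ifi209. After saline Ifi204 averaged 39.1 ± 4.34 CPM in MG, 203 ± 68.8 in MLC and 21.9 ± 15.5 in NoTx, and the same groups had 53.3 ± 43.0, 231 ± 59.9 and 23.1 ± 4.01 CPM after seizure. The highest MG library had 96.4 CPM and the lowest MLC library 147 CPM. Ifi209 averaged 25.9 ± 18.9, 97.9 ± 60.2 and 39.9 ± 17.3 CPM after saline, and 40.2 ± 33.3, 138 ± 58.7 and 16.9 ± 13.9 CPM after seizure, in MG, MLC and NoTx respectively. Its MG and MLC libraries overlapped in both conditions. Ifi205, the least abundant member, averaged 1.42 CPM in MG, 3.17 in MLC and 3.08 in NoTx after saline, was at 0 in 3 of 4 MG seizure libraries and had 3 counts in all in NoTx after seizure. In MLC after seizure it ran from 0 to 9.43 CPM, and no fold against NoTx is given at such counts.

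Aim2, the inflammasome sensor, was the exception among the abundant members. After saline its level was 67.5, 67.9 and 57.9 CPM in MG, 89.0, 112 and 65.5 CPM in MLC, and 74.9 and 78.4 CPM in NoTx. After seizure it ran from 28.8 to 165 CPM in MG (median 97.8) and from 32.2 to 143 CPM in MLC (median 92.4), and was 88.9, 50.3 and 70.5 CPM in NoTx. The MLC libraries overlapped those of MG and of NoTx in both conditions, and the 6 group means lay between 64.4 and 97.4 CPM, with neighbours in that order closer to each other than the larger SD of the pair.

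**Figure D1:**
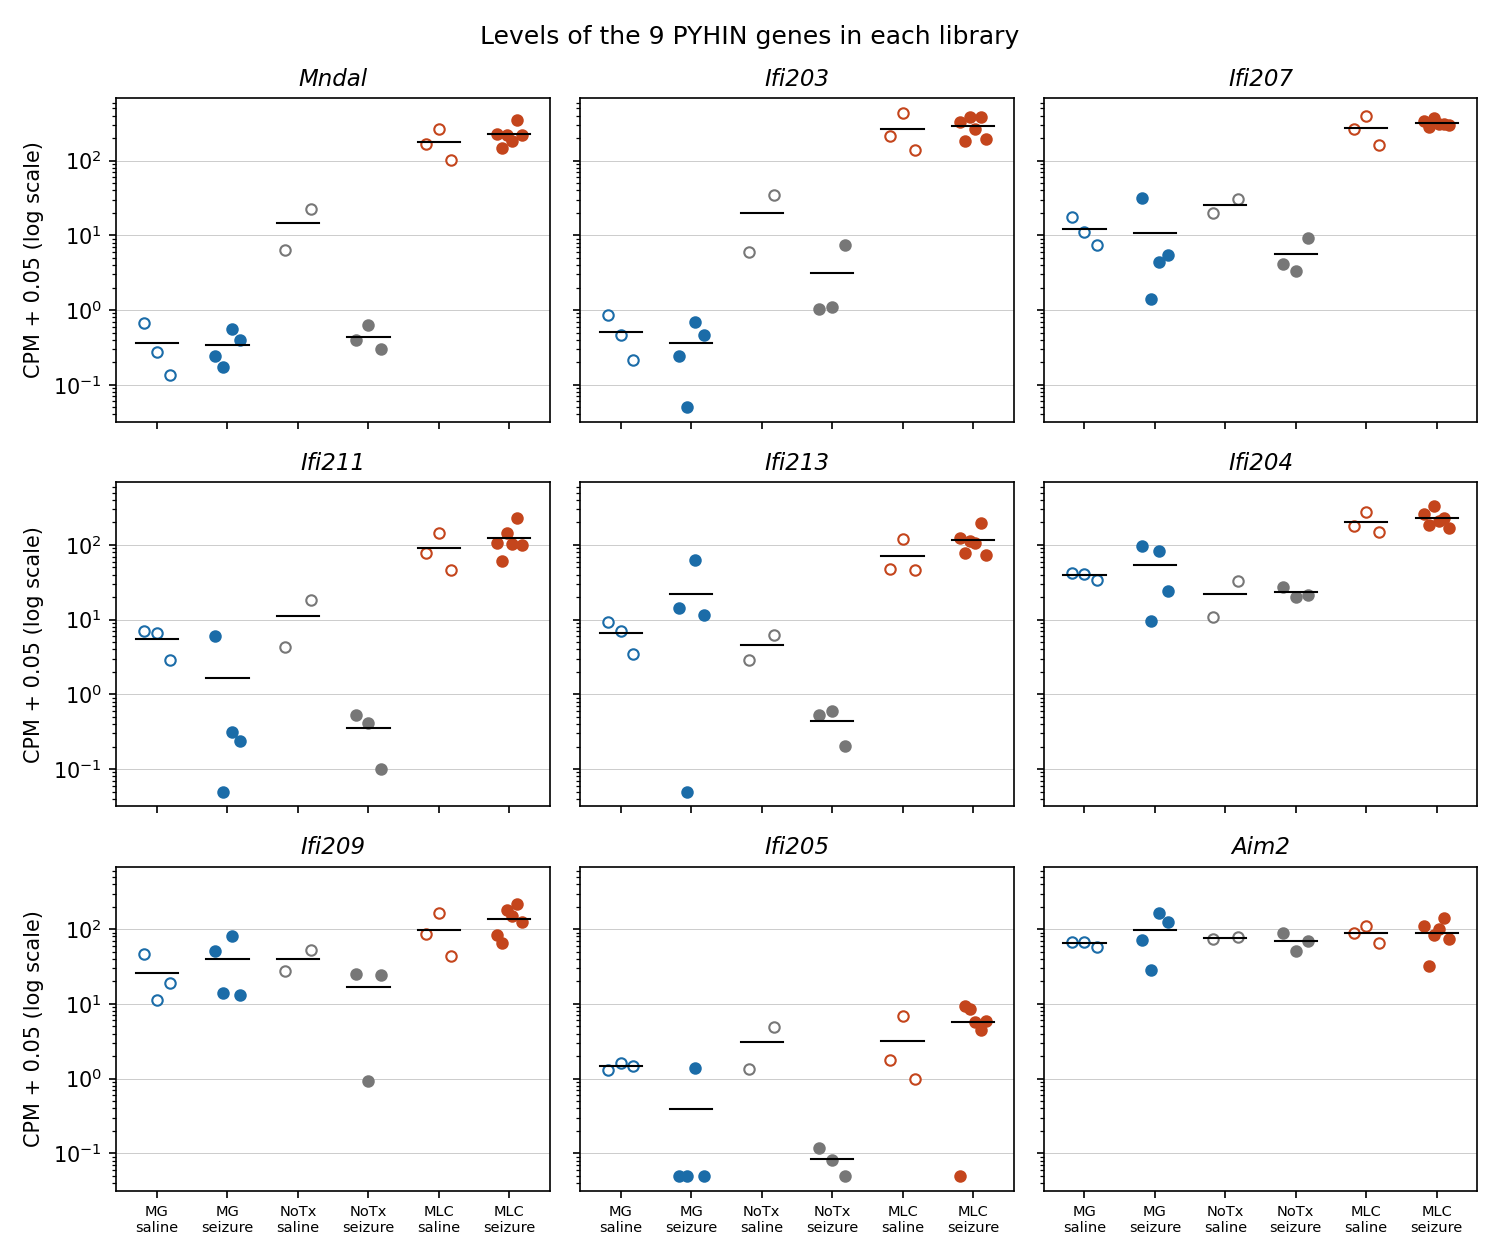
Level of each of the 9 PYHIN genes in each of the 21 libraries, in CPM plus 0.05 on a log scale (y axis), by group (x axis). Each point is a library, open after saline and filled after seizure, and bars are group means; all MLC points of Mndal, Ifi203, Ifi207 and Ifi211 lie above all other points, whereas the Aim2 groups overlap.

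Per kilobase of exon, counting each base that is exon in any annotated transcript of the gene, the family changed its order between cell types. This length was 6706 bases for Ifi203 and 6840 for Ifi213, whose longest transcripts had 3754 and 3090 bases. For Aim2 the 2 lengths were 3501 and 2839 bases. The ranks, those of Ifi203 and Ifi213 in particular, therefore depend on the length used. In MLC after seizure the mean level was 94.0 CPM per kb for Ifi207, 69.6 for Ifi211, 64.9 for Ifi204, 61.8 for Mndal, 43.3 for Ifi203, 38.8 for Ifi209, 25.8 for Aim2 and 16.9 for Ifi213. Aim2 at 18.4 CPM per kb was highest in MG after saline, followed by Ifi204 at 11, Ifi209 at 7.29, Ifi207 at 3.51 and Ifi211 at 3.05, with Mndal at 0.0864 and Ifi203 at 0.0692 CPM per kb. Aim2 made up 34.2 to 44.2% of the counts of the 14 PYHIN rows in MG after saline and 5.46 to 8.12% in MLC. After seizure its share was 24.3 to 69.2% in MG, 2.91 to 6.69% in MLC and 49.8 to 64.8% in NoTx. The summed level of the other 8 members was 91.2 ± 30.5 CPM (SD, n = 3) in MG and 1183 ± 582 CPM (n = 3) in MLC after saline, and 129 ± 105 (n = 4) and 1451 ± 348 CPM (n = 6) after seizure.

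**Figure D2:**
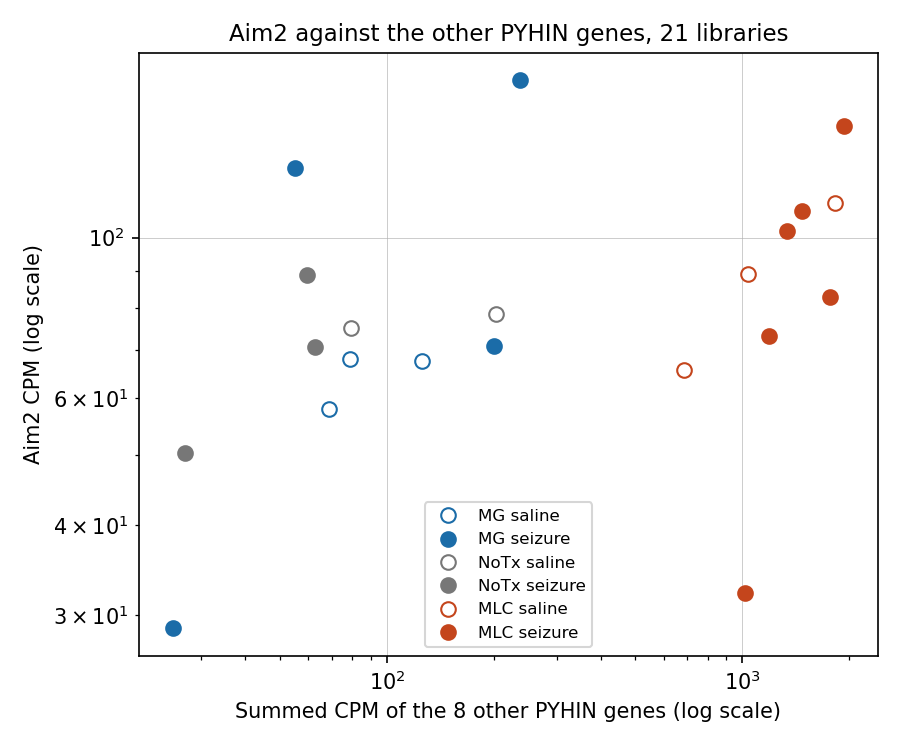
Aim2 (y axis) against the sum of the other 8 members (x axis) in the 21 libraries, both in CPM on log scales. The MLC libraries lie to the right, with sums of 687 to 1931 CPM, at Aim2 levels within the range of the other libraries.

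Reads of this family can be shared between its genes. Of the 50-base stretches in the transcripts of GENCODE M21, 72.8% of those of Ifi211 also occurred in another PYHIN gene, 33.4% of those of Ifi209, 19.2% of those of Ifi204, 18.6% of those of Ifi205, 17.7% of those of Mndal, 15.6% of those of Ifi213, 12.2% of those of Ifi203, 5.39% of those of Ifi207 and 0% of those of Aim2. The sources used here do not say how the deposited counts split such reads, so the level of Ifi211 in particular is uncertain, and the levels of Mndal and Ifi203 are not wholly separate measurements.

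Between MLC and MG, the contrast that chose the family, the log2 fold changes after saline and after seizure were 9.12 and 9.38 for Mndal, 9.12 and 9.58 for Ifi203, 4.53 and 4.92 for Ifi207, 4.04 and 6.33 for Ifi211, 3.45 and 2.37 for Ifi213, 2.38 and 2.12 for Ifi204, 1.92 and 1.77 for Ifi209, and 0.46 and -0.11 for Aim2. Ifi205 had 1.16 and 3.97, on few counts. The libraries did not overlap, with MLC higher, for 6 of 9 members after saline and for the same number after seizure, beside 10.4% and 2.44% of all 18867 tested genes. Since the choice rested on this contrast, nothing is read from these counts. Without the 3 libraries of fewest genes at equal depth the values were 10.33 for Mndal, 11.34 for Ifi203, 5.17 for Ifi211, 3.91 for Ifi213 and 0.80 for Aim2 after seizure. Without MG seizure replicate 1 the values were 6.39 for Ifi207 and 9.36 for Ifi211.

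MLC against NoTx uses other controls but shares the MLC libraries whose high values helped to choose the family. Its counts of members are therefore not independent of the choice, and nothing is read from their excess over all genes. After saline Mndal (log2 fold change 3.63, SE 0.70, adjusted p = 0.00646), Ifi204 (3.21, SE 0.72, adjusted p = 0.0225) and Ifi207 (3.44, SE 0.86, adjusted p = 0.0493) were higher in MLC in edgeR's quasi-likelihood test. That is 3 of 9 members, where 0.445% of all tested genes were called higher. Ifi203 at 3.71 (adjusted p = 0.0582), Ifi213 at 4.00 (adjusted p = 0.187) and Ifi211 at 3.01 (adjusted p = 0.476) did not pass the test, although no MLC library overlapped a NoTx library in any of these 3, beside 15.3% of all genes without overlap and higher in MLC. NoTx saline has 2 libraries, so without 1 of them the remaining library is assumed to vary like the other groups. Without NoTx saline replicate 1 none of the 9 was called, with 2.98 and an adjusted p of 0.20 for Mndal, and without NoTx replicate 2 or MLC replicate 2 Mndal was the only call.

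After seizure 7 of 9 members were higher in MLC than in NoTx, where 2.55% of all tested genes were called higher. The log2 fold changes were 9.07 for Mndal (SE 0.76, adjusted p = 4.4e-08), 8.68 for Ifi211 (SE 1.4, adjusted p = 2.2e-04), 8.15 for Ifi213 (SE 1.28, adjusted p = 2.3e-04), 6.55 for Ifi203 (SE 0.90, adjusted p = 4.7e-05), 5.85 for Ifi207 (SE 0.80, adjusted p = 4.2e-05), 3.33 for Ifi204 (SE 0.58, adjusted p = 7.5e-04) and 3.03 for Ifi209 (SE 0.84, adjusted p = 0.0343). Each of these had no overlap between the 6 MLC and 3 NoTx libraries, beside 4.12% of all genes without overlap and higher in MLC. Aim2 differed by 0.37 (SE 0.44, adjusted p = 0.667) and was not called. Ifi209 was called in 8 of the 18 other fits of this comparison, which leave out a library or change the tool, scaling or filter, and the remaining 6 genes were called in all 18.

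MG and NoTx are both microglia, and after saline they differed in 2 members. Mndal was lower in MG, with a log2 fold change of -5.49 (SE 0.68, adjusted p = 7.7e-04), as was Ifi203, with -5.41 (SE 0.91, adjusted p = 0.0155). These are 2 of the 9 genes called lower among all 18867, or 0.0477%, but the low values in the same MG libraries helped to choose these genes, so the share is not independent of the choice. The other members ranged from -1.12 for Ifi205 to 0.83 for Ifi204, and none of them was called. The NoTx saline libraries in which Mndal stood at 6.28 and 22.6 CPM held 144 and 1073 CPM of blood monocyte markers and 69.8 and 1651 CPM of neutrophil markers, against 8.00 to 19.96 and 2.42 to 8.22 CPM in MG. All 8 monocyte markers were detected in NoTx after saline, including Ly6c2 at 11.2 and 71.1 CPM, and dendritic cell markers summed to 32.6 and 50.8 CPM in the same 2 libraries against 5.13 to 8.94 CPM in MG. Border macrophage markers, whose sum was highest in MLC, came to 157.5 and 227 CPM in the same 2 libraries against 10.1 to 30.3 CPM in MG. Of these markers, F13a1 went the other way, with a mean of 129 CPM in NoTx after saline. It averaged 12.4 and 5.17 CPM in MLC after saline and seizure. Lyve1, at a mean of 2.10 CPM, was also higher in NoTx after saline than in MLC. The part of these cell types in the difference was not tested. Without NoTx replicate 2 Ifi203 was no longer called (-3.63, adjusted p = 0.91), and without any of the 3 MG libraries it was not called either, whereas Mndal was. In a fit of those 2 groups alone neither gene was called, at an adjusted p of 0.12 for each.

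After seizure no member was called between MG and NoTx by edgeR or by limma-voom, with 4 of 9 at an unadjusted p under 0.05, and 0.0742% of all genes were called. DESeq2 called Ifi213, at 5.73, and Ifi203, at -3.31. In edgeR Ifi213 was 5.78 higher in MG (SE 1.17, adjusted p = 0.0662), with 1 of the 4 MG libraries at 0, and was called without that library, MG replicate 2, at 6.19 (adjusted p = 0.0017). Ifi203 was at -3.04 (SE 0.77, adjusted p = 0.219), and Mndal, at -0.31 (SE 0.60, adjusted p = 1), was at a similar low level in both.

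**Figure D3:**
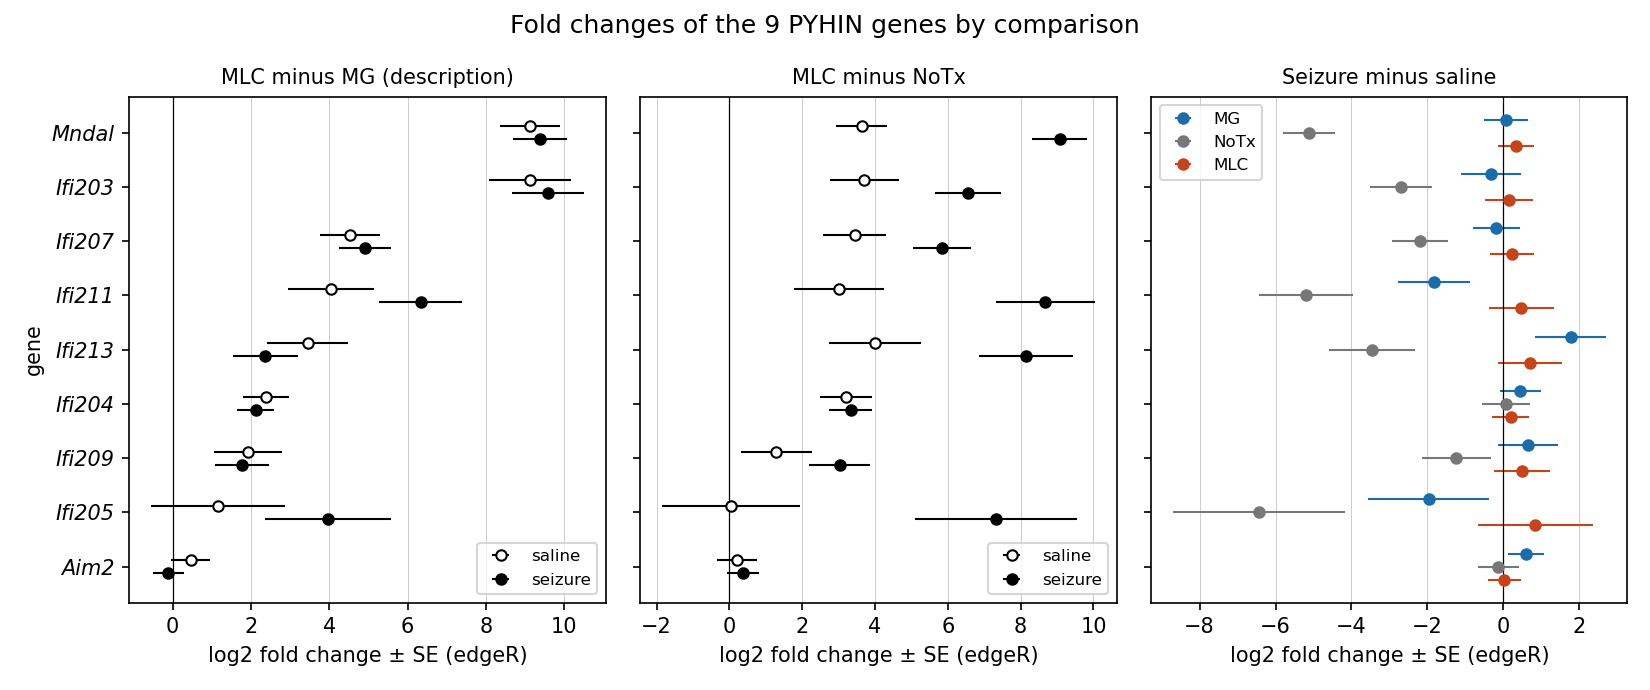
Log2 fold change with its SE (x axis) of the 9 genes (y axis) for MLC minus MG, MLC minus NoTx, and seizure minus saline within each cell type. Mndal and Ifi203 lie farthest to the right in MLC minus MG, Aim2 stays near 0 in all panels, and in the right panel the NoTx values of Mndal and Ifi211 are near -5 while those of MLC are near 0. Ifi205 rests on few counts in MG and NoTx after seizure.

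The study also asked how these cells differed after a seizure. Within MLC none of the 9 members was called, none had an unadjusted p under 0.05 and the values ran from 0.03 for Aim2 to 0.84 for Ifi205 on the log2 scale, while 0% of all genes were called. DESeq2 and limma-voom called none of the 9 either. Within MG none was called by any of the 3 tools and none had an unadjusted p under 0.05, beside 0.0371% of all genes, with values from -1.97 for Ifi205 to 1.77 for Ifi213. Ifi211 in MG stood at -1.82 (SE 0.95, adjusted p = 0.452), and without MG seizure replicate 1, its highest library, at -4.84 (adjusted p = 0.02).

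In NoTx, Mndal fell by 5.11 on the log2 scale after seizure (SE 0.68, adjusted p = 0.00251), from 6.28 and 22.6 CPM to 0.252 to 0.577 CPM, and was the only member called, beside 0.101% of all genes called lower. The values of Ifi211, at -5.19 (SE 1.24, adjusted p = 0.191), Ifi213, at -3.46 (SE 1.13, adjusted p = 0.647), Ifi203, at -2.69 (SE 0.82, adjusted p = 0.587), and Ifi207, at -2.20 (SE 0.74, adjusted p = 0.675), did not pass the test. Aim2 was at -0.13 (SE 0.55, adjusted p = 1) and Ifi204 at 0.07 (SE 0.63, adjusted p = 1). The call of Mndal was not made by limma-voom (adjusted p = 0.20) or in a fit of the 2 NoTx groups alone (adjusted p = 0.34). Blood monocyte markers summed to 26.2, 6.14 and 140 CPM in the 3 NoTx seizure libraries and to 144 and 1073 CPM in the 2 saline libraries. Seizure replicate 3, at 140 CPM, was thus close to saline replicate 1, at 144 CPM, although Mndal was 0.252 and 6.28 CPM in them. Border macrophage markers were lower in all 3 seizure libraries, at 10.2, 5.33 and 44.9 CPM, than in the saline libraries, at 157.5 and 227 CPM. The part of these markers in the difference was not tested. NoTx seizure replicate 3 also held 817 CPM of neutrophil markers and had the highest Ifi203 of the 3, at 7.37 CPM, and the lowest Mndal, at 0.252 CPM.

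**Figure D4:**
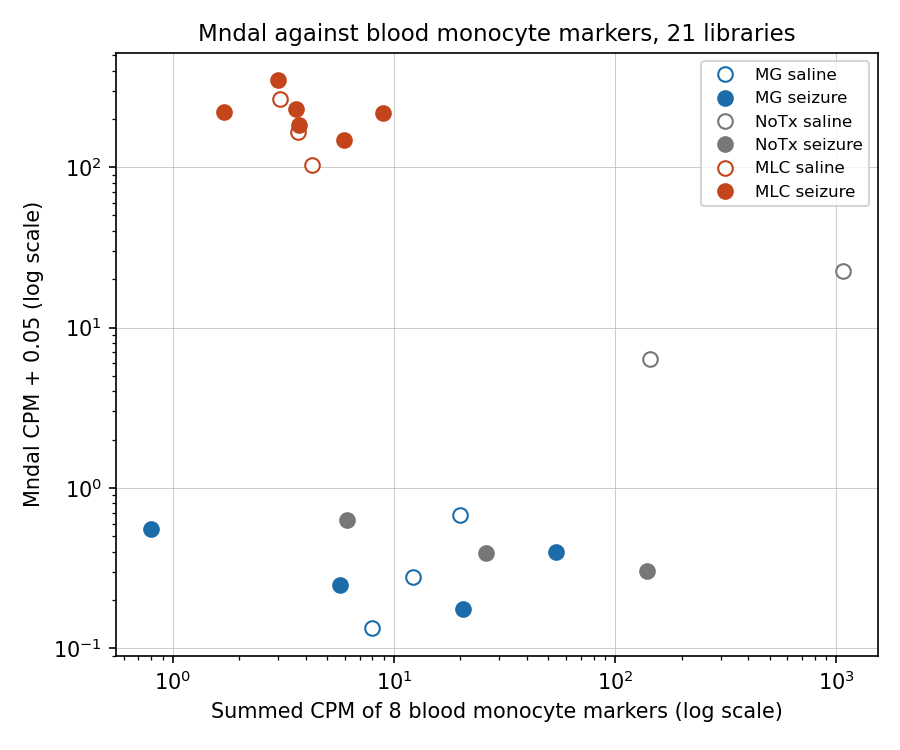
Mndal in CPM plus 0.05 (y axis) against the summed CPM of 8 blood monocyte markers (x axis), both on log scales, with a point for each of the 21 libraries. The MLC libraries have the highest Mndal at marker sums of 1.71 to 8.90 CPM, and the 2 NoTx saline libraries have the highest marker sums, at 144 and 1073 CPM.

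The difference between these seizure minus saline values was tested as an interaction. The value of NoTx minus that of MLC was -5.45 for Mndal (SE 0.83, adjusted p = 0.0197), the only member called and 1 of 5 genes, or 0.0265%, called at all. It was not called by limma-voom (adjusted p = 0.17), nor without NoTx seizure replicate 1 (-5.36, adjusted p = 0.08), NoTx saline replicate 2 (-4.25, adjusted p = 0.26), MLC saline replicate 1 (-5.41, adjusted p = 0.16) or MLC saline replicate 3 (-5.17, adjusted p = 0.11). For NoTx minus MG, Mndal stood at -5.18 (SE 0.90, adjusted p = 0.05, just above the limit), and no member was called by edgeR or limma-voom, with 4 of 9 at an unadjusted p under 0.05 and 0.0106% of all genes called. DESeq2 called Mndal and Ifi213 there. These 2 interactions were added after the levels had been seen. For MLC minus MG no member was called by any of the 3 tools and none had an unadjusted p under 0.05.

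A further 5 PYHIN rows of the table had at least 10 counts in a library, and 4 of them are genes and 1 a pseudogene. Ifi206 averaged 3.401 and 4.95 CPM in MG after saline and seizure, 56.4 and 46.0 CPM in MLC, and 2.39 and 2.64 CPM in NoTx, with MLC above all MG and NoTx libraries. Ifi208 averaged 13 and 10.02 CPM in MLC, but reached 15.6 CPM in 1 NoTx seizure library, and Ifi214 stayed at or below 11.9 CPM in every library. Ifi202b was at 0 in all 12 MG and NoTx libraries and at up to 1.08 CPM in MLC. The pseudogene Ifi203-ps averaged 6.43 and 10.5 CPM in MLC and at most 0.161 CPM in the other groups, with 26.3% of its 50-base stretches shared with other PYHIN genes. Among the genes outside the family within 500 kb of the cluster that could be matched by name to the table, Cadm3 and Fmn2 passed the filter, and neither was called in any comparison. Their highest group means, in MLC after seizure, were 0.81 and 0.63 CPM, so the lack of calls says little about the surroundings of the cluster. Most olfactory receptor genes within that distance were not matched and were not checked.

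Patterns within the family were compared by the mean absolute difference of centred log2(CPM + 0.5) over the 21 libraries, where 0 would be the same pattern. Mndal and Ifi203 were the closest pair at 0.403, followed by Ifi207 and Ifi211 at 0.598 and Ifi204 and Ifi209 at 0.809. Mndal and Aim2 were the farthest apart at 3.561. The printed start windows of the closest 2 pairs were similar, as given above, but Ifi205 and Ifi211, whose windows were 94.0% identical over 201 aligned bases, stood at 1.906, and Ifi205 and Ifi207, 88.7% identical over 204 bases, at 1.703. Outside the family, the genes most like Mndal were Klra2 at 0.508, Clec12a at 0.534, Ms4a14 at 0.544, Mgst1 at 0.564 and Clec4n at 0.597. Klra2, which encodes a lectin-like receptor, averaged 0.641 CPM in MG, 277 CPM in MLC and 5.23 CPM in NoTx after saline. Clec12a, an inhibitory lectin receptor of myeloid cells, averaged 0.769, 492 and 26.6 CPM in the same groups and was also the gene most like Ifi203, at 0.447, ahead of Rgs18 and Ms4a4a. Slamf7, a receptor of immune cells, was the gene most like both Ifi207, at 0.586, and Ifi211, at 0.523. Next for Ifi207 were a gene without a symbol, ENSMUSG00000121482, and Gapt, and for Ifi211 Clec2i and Cd40. These distances are a description, and libraries of 1 group share their cell type.

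Genes that act with the family were taken from 4 lists. These were written from general knowledge but with earlier results of these data known, so they are not independent of the data. Of 39 tested interferon-induced genes outside the family, all had a positive log2 fold change in MLC against MG after saline, with a median of 1.39 against 0 over all genes. DESeq2 called 6 of the list in either direction, beside 660 of 15896 genes, and limma-voom 14, beside 1683 of 18867. By edgeR 1 was higher in MLC and none lower, where 0.779% of all genes were called higher. That gene was Bst2, the antiviral membrane protein tetherin, at 104 ± 33.3 CPM (SD, n = 3) in MG and 525 ± 42.3 CPM (n = 3) in MLC (log2 fold change 2.33, adjusted p = 1.3e-04). After seizure 8 were higher and none lower, where 2.51% of all genes were called higher, with a median of 1.35 and 32 of 39 positive. Ifi44 averaged 0.0795 CPM in MG and 22.3 CPM in MLC after seizure, and Oas2, which makes the second messenger that activates RNase L, averaged 0.0862 and 13.3 CPM. Oasl1 was at 0 in all 4 MG seizure libraries and averaged 7.89 CPM in MLC. Against NoTx 2 of 39 were higher in MLC after saline, where 0.445% of all genes were called higher, and 17 of 39 after seizure, where 2.55% were, with none lower.

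Among 14 genes of the AIM2 inflammasome and its neighbours, Nlrc4 and Pycard moved in opposite directions. Nlrc4, which encodes a subunit of another inflammasome, averaged 0.300 ± 0.140 CPM (SD, n = 3) in MG and 49.6 ± 10.1 CPM (n = 3) in MLC after saline (log2 fold change 7.34, adjusted p = 3.1e-04), and 0.0769 ± 0.0422 (n = 4) and 107 ± 110 CPM (n = 6) after seizure (10.65, adjusted p = 1.6e-06). It was also higher in MLC than in NoTx in both conditions, at 4.65 (adjusted p = 0.0486) and 7.32 (adjusted p = 1.1e-04). Pycard, which encodes the adaptor ASC that AIM2 needs, averaged 739 ± 187 CPM in MG and 283 ± 48.6 CPM in MLC after seizure (-1.39, adjusted p = 3.2e-04), where 3.37% of all genes were called lower, and was lower in MLC than in NoTx after saline (-1.37, adjusted p = 0.0302) and after seizure (-1.15, adjusted p = 0.00461). After saline Pycard was also lower in MLC than in MG but was not called by edgeR (-0.88, adjusted p = 0.214). Casp8 was the other gene called, lower in MLC than in NoTx after seizure (-1.35, adjusted p = 0.0117). The list's median was 0.18 and 0.21 in MLC against MG.

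Of 21 genes of cytosolic DNA sensing through STING, none was called between MLC and MG after saline by edgeR, with 2 at an unadjusted p under 0.05, while DESeq2 called 2 and limma-voom 4. Over all genes edgeR called 299 of 18867 in that comparison, DESeq2 660 of 15896 and limma-voom 1683 of 18867. After seizure Samhd1, a nucleotide hydrolase that limits retroviral DNA, was higher in MLC (324 ± 86.7 against 127 ± 52.2 CPM, log2 fold change 1.35, adjusted p = 0.0105) and Xrcc5, the Ku80 subunit, lower (7.77 ± 5.69 against 45.7 ± 24.9 CPM, -2.56, adjusted p = 0.0167). Against NoTx after seizure Zbp1, a sensor of Z-form nucleic acids, and Samhd1 were higher in MLC, at 7.09 (adjusted p = 1.2e-04) and 1.53 (adjusted p = 0.01), and Sting1, which encodes STING itself, and Xrcc5 were lower, at -1.53 (adjusted p = 0.0307) and -2.49 (adjusted p = 0.0275). The list's median in MLC against MG was 0.37 after saline and -0.06 after seizure. In MLC against MG after seizure edgeR called 2.51% of all genes higher and 3.37% lower. In MLC against NoTx after seizure it called 481 of 18867 genes higher and 681 lower.

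Of 14 interferon receptors and signalling genes, none was called between MLC and MG after saline by edgeR, with 3 at an unadjusted p under 0.05, while DESeq2 called 1 and limma-voom 4. The numbers called over all genes, here and after seizure, are those given for the STING list. After seizure Usp18, a brake on interferon receptor signalling, was higher in MLC (1.67, adjusted p = 0.0385) and Ifngr1, the interferon-gamma receptor, lower (-0.91, adjusted p = 0.0337). Against NoTx after seizure Usp18 and Ifnar2, a subunit of the type I interferon receptor, were higher in MLC, at 3.05 (adjusted p = 0.00177) and 1.69 (adjusted p = 0.0242), and Ifngr1 lower, at -0.90 (adjusted p = 0.0495). Between seizure and saline, edgeR called none of the genes of the 4 lists within any cell type, with at most 4 of a list at an unadjusted p under 0.05. DESeq2 and limma-voom each called 3 interferon-induced genes within MG, and within NoTx DESeq2 called 1 gene of the STING list and limma-voom 1 of the inflammasome list. Over all genes DESeq2 called 274 of 16550 within MG and 218 of 17235 within NoTx, and limma-voom 253 and 89 of 18867.

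**Figure D5:**
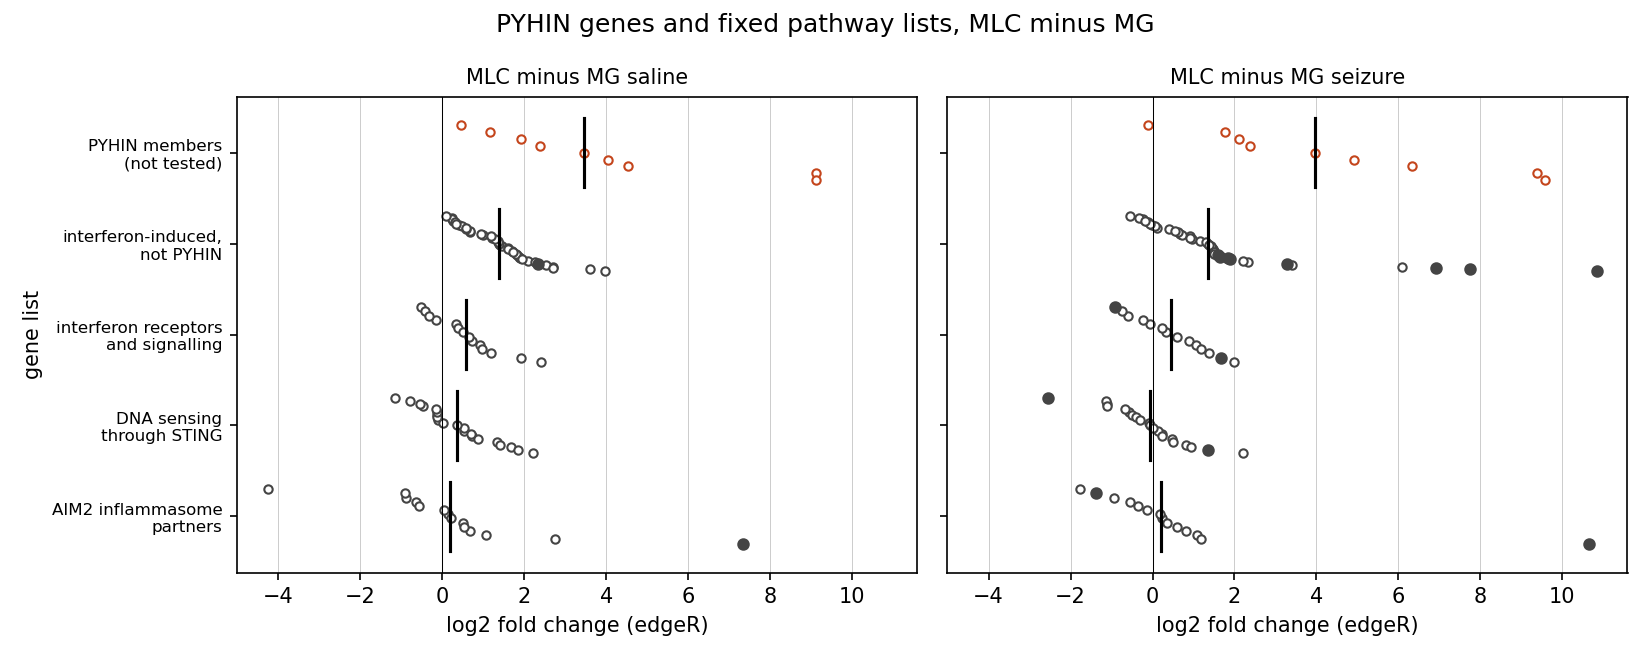
Log2 fold change of MLC minus MG (x axis) for the 9 PYHIN genes and the genes of the 4 lists (y axis), after saline (left) and after seizure (right). Filled points passed edgeR's test, open points did not or, for PYHIN genes, were not tested, and bars are medians, 3.45 and 3.97 for PYHIN genes, which were chosen on this contrast, and 1.39 and 1.35 for other interferon-induced genes; the rightmost filled point of that list after seizure is Oasl1, at 0 in MG, whose position depends on the prior count.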

How the data were processed

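Sorted brain cells of 21 libraries were sequenced after low-input library preparation, per the labels' protocols. The authors deposited estimated counts per gene, not all whole, which were rounded here. The submitters' processing notes name STAR 2.7.10a, the build GRCm39, Trim Galore 0.6.7 and featureCounts (Subread 2.4.5), and no source used here names the tool behind the fractional values. No molecular identifiers are named, so replicate reads are not independent molecules.

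All 21 libraries entered 1 edgeR 4.0.16 quasi-likelihood fit (R 4.3.3, TMM scaling, robust, filter by group) of 18867 genes with 6 group means. From it 12 comparisons were drawn. Benjamini-Hochberg adjustment of p values ran over all tested genes, with 0.05 as the limit. Log2 fold changes are those of edgeR, and an SE is the size of the fold change over the square root of its F statistic. DESeq2 1.42.0 and limma 3.58.1 gave other fits, and the procedure was tested on simulated counts. For seizure against saline in NoTx, it called 1 of 85 genes changed 2-fold, 5 of 56 changed 4-fold and 27 of 59 changed 8-fold. It made 0 false calls there, and false calls in the measured counts were not tested. Most changes of 2-fold or 4-fold were thus missed, and a gene not called in that comparison may still differ. Recovery was not split by level, and that of the members, several of them low in NoTx, was not tested. Labels call the samples biological replicates, but p values measure only the spread between these samples. The members, lists, tests and alternatives were chosen with earlier results of these data known.

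Named were all 9 members, other PYHIN rows with at least 10 counts in a library, at most 3 called genes per list, comparison and direction (average log2 CPM 2 or more), the 5 genes most like Mndal and 3 most like Ifi203, Ifi207 and Ifi211, and tested genes within 500 kb of the cluster. One gene of the interferon signalling list that this rule names is not reported here.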

Additional observations from a re-analysis of the deposited data

Results flagged for a closer look

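Among the MG seizure libraries, 3 values stood far from the others by Dixon's criterion for 4 samples. Ifi205 was at 1.35 CPM in replicate 3 and at 0 in the other 3 libraries. Ifi207 was at 31.4 CPM in replicate 1, with the next library at 5.46 CPM, and Ifi211 was at 5.99 CPM in the same replicate, with the next at 0.265 CPM. Groups of 4 to 10 samples were checked for 9 genes, which makes 18 checks, and chance flags about 1 in 20. The seizure minus saline value of Mndal differed between NoTx and MLC by -5.45 on the log2 scale, the interaction term given above. That term was added after the levels had been seen and was not called in several other fits, and treatment cannot be told apart from batch.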

How the results depend on the processing

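The counts of called members were recomputed with other tools, scaling, filters and libraries, and values named above as lost without a library are not repeated. With DESeq2, 5 members were called in MLC against NoTx after saline (3 by edgeR), 2 in MG against NoTx after seizure (0), 3 between seizure and saline in NoTx (1), 2 in the interaction of NoTx minus MG (0) and 2 in that of NoTx minus MLC (1). With limma-voom the numbers were 6 for MLC against NoTx after saline, 0 for seizure against saline in NoTx and 0 for the interaction of NoTx minus MLC. Without a filter on low counts 1 member was called in MG against NoTx after saline and 1 in the interaction of NoTx minus MG. In fits of only the groups compared 0 members were called in MG against NoTx after saline, 0 between seizure and saline in NoTx and 3 in the interaction of NoTx minus MLC. With the libraries of the same code summed, 0 were called in that interaction. Leaving out 1 library at a time gave 0 to 2 called members in MLC against NoTx after saline, 1 to 2 in MG against NoTx after saline, 0 to 1 in MG against NoTx after seizure, 0 to 1 between seizure and saline in MG, 0 to 2 in the interaction of NoTx minus MG and 0 to 1 in that of NoTx minus MLC. Of MG against NoTx after seizure the call came without MG seizure replicate 2, and of seizure against saline in MG without MG seizure replicate 1. For Ifi205 in MLC against MG after saline, leaving out a library gave -0.06 (without MLC saline replicate 2, the 1 change of sign) to 1.61 (without MLC saline replicate 3). The cause of these changes was not tested.

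After removal of group means, the correlations of same-numbered libraries between groups ran from -0.244 to 0.254. Removing the means of groups of 2 to 6 libraries constrains these values, so they cannot decide whether replicate numbers pair the libraries. Pairing by the codes in the library names was not checked. With the replicate block, 1 member was called in MG against NoTx after saline and 0 in the interaction of NoTx minus MLC, with 2 in MLC against NoTx after saline and 6 after seizure.

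Over all genes, MLC against MG had 299 calls by edgeR, 660 by DESeq2 and 1683 by limma-voom after saline, and 1109, 2447 and 1051 after seizure. MLC against NoTx had 237, 661 and 1542 after saline and 1162, 2748 and 1325 after seizure, MG against NoTx 10, 104 and 420 and then 14, 627 and 24, and seizure against saline 7, 274 and 253 in MG, 0, 130 and 96 in MLC and 20, 218 and 89 in NoTx. With RLE scaling, all genes had a median log2 fold change of 0.12 in place of 0 in MLC against MG after seizure, with 545 higher and 477 lower calls in place of 474 and 635.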
